A study of Mus musculus and Acomys cahirinus with 16 samples.

Results

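Aim2, Nlrp3, Nlrp10, Pycard, Casp1, Casp4, Ripk1, Ripk3, Mlkl and Zbp1 carry the inflammasome and necroptosis routes of inflammatory cell death. These 10 genes were taken by symbol from a list, out of 56980 genes in the mouse table and 19818 in the spiny mouse table, and each was found once in both tables. The genes were chosen by symbol with their treated over untreated fold changes in both species, and the difference between these, already known from the same 16 samples, so the levels and changes of the 10 genes are given as a description, without a test of their own. The samples were skin from Mus musculus, the laboratory mouse, and from Acomys cahirinus, the African spiny mouse, a rodent known for scar-poor skin repair. Each species gave 4 untreated samples and 4 samples of skin treated with DMBA/TPA, 16 in all. DMBA is a mutagenic hydrocarbon and TPA a phorbol ester that drives skin inflammation and growth, and the pair is the classical protocol for chemically induced skin tumours. Strain, genotype, sex, age, doses, the time of sampling and whether tumour or flat skin was taken are not given in the sources used here. The labels number the replicates without naming animals, so the errors measure the spread between these samples.

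Inflammasomes are protein platforms on which a sensor, such as AIM2 for cytosolic DNA or NLRP3 for membrane stress, recruits the adaptor ASC (the product of Pycard) and activates caspase-1. Caspase-1 matures interleukin-1 beta and interleukin-18, and both caspase-1 and caspase-11 (the product of mouse Casp4) cut gasdermin D, whose pores open the cell membrane in pyroptosis. Necroptosis is a separate lytic death in which RIPK1 or ZBP1 engages the kinase RIPK3, which phosphorylates the membrane-breaking protein MLKL when caspase-8 is not active. In skin, both routes are studied for their part in keratinocyte death and inflammation.

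Levels are given as CPM, counts brought to one common total with TMM factors, from libraries of 19608787 to 30198281 counts in mouse and 21143918 to 30561256 in spiny mouse. The level of 3 counts lay between 0.0982 and 0.153 CPM, and every one of the 10 genes was above it in every sample. Keratinocyte, fibroblast and other skin markers were present in all 4 groups. Untreated mouse replicate 2 stood apart from the other 7 mouse samples on the second principal component, at 112 against -40.2 to 1.04. Its 5 skeletal muscle markers summed to 58800 CPM, against 18200 to 22800 CPM in the other 3 untreated mouse samples, and its anagen hair follicle markers to 1310 against 1.41 to 18.5 CPM. Its sums were lower for suprabasal keratinocyte (3080 against 6850 to 8550 CPM), macrophage (399 against 619 to 1170 CPM) and adipocyte markers (86.8 against 324 to 495 CPM). It was the lowest untreated mouse sample for each of the 10 genes, and mouse fold changes are also given without it. For the genes where it is not repeated later, the log2 fold change without it was -0.57 for Aim2, -0.72 for Nlrp3, -1.83 for Casp4, 0.2 for Ripk1 and 1.25 for Ripk3. The part of its tissue makeup in these levels was not tested. In spiny mouse the second component set untreated replicates 1 and 2 and treated replicates 3 and 4 (18.6 to 35.8) against the other 4 samples (-38.6 to -15.7).

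In spiny mouse skin, 8 of the 10 genes stood higher in every DMBA/TPA sample than in any untreated sample, by 1.61-fold (Ripk1) to 9.65-fold (Aim2) between group means. In mouse skin Ripk3 and Ripk1 did so, by 2.43-fold and 1.13-fold, with the sign of Ripk1 depending on the scaling, and Aim2 and Casp4 were lower in every treated sample, at 0.647 and 0.293 times the untreated mean. Across all genes with a mean of at least 10 counts, such a separation of the groups was common: 26.2% of mouse genes were higher without overlap and 31.6% lower, against 26.7% and 24.1% in spiny mouse. In either direction this came to 57.8% of mouse and 50.8% of spiny mouse genes. At an adjusted p under 0.05 in edgeR's quasi-likelihood test, 1 of the 10 was called higher in treated mouse skin (25.9% of all genes tested) and 4 lower (35.3%). In spiny mouse 8 were called higher (28.2% of all genes) and 0 lower (26.9%). In either direction, 61.2% of all mouse and 55.1% of all spiny mouse genes were called. When single mouse replicates were left out, 1 to 3 were called higher (3 without untreated replicate 2) and 1 to 4 lower (1 without treated replicate 2). Of all mouse genes called, 42.4% were higher in the full fit, 48.1% without untreated replicate 2 and 47% without treated replicate 2. Since the genes were chosen with these comparisons in view, nothing is read from these counts. The median log2 fold change of the 10 genes was -0.23 in mouse and 1.27 in spiny mouse, beside -0.146 and -0.01 over all genes tested. In mouse the median of all genes moved to -0.35 with upper-quartile factors and -0.38 when scaled by library size alone, and under both the small mouse changes of Pycard, Casp1 and Ripk1 turned from above to below 0. Beside these changes the makeup of the tissue also moved, as the marker sums given with the cell types show.

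**Figure D1:**
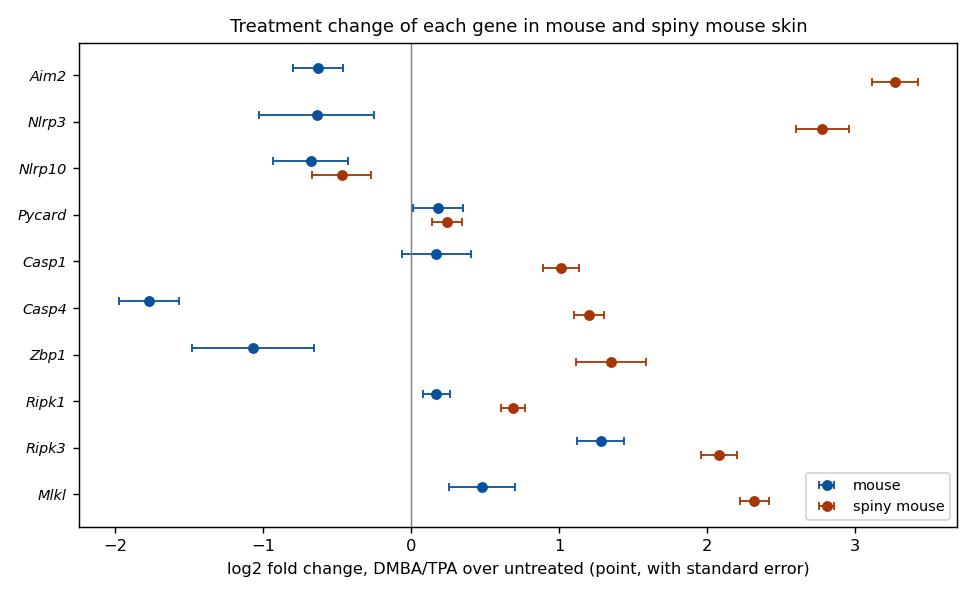
Log2 fold change of DMBA/TPA-treated over untreated skin for each of the 10 genes, in mouse and in spiny mouse, as estimate and standard error from 4 against 4 samples. Aim2, Nlrp3, Casp4 and Zbp1 lay on opposite sides of 0 in the 2 species, and Pycard lay near 0 in both (0.18 and 0.24).

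Among the sensors, Aim2 showed the widest separation. The gene encodes the receptor of double-stranded DNA in the cytosol. The mouse gene, ENSMUSG00000037860, lies at chr1:173178445-173293606 on the plus strand (GRCm39), and the spiny mouse gene at scaffold_5:20419912-20526431 on the minus strand (AcoCah2). In untreated mouse skin its level in replicates 1 to 4 was 4.44, 4.39, 5.2 and 4.55 CPM, and after treatment 3.62, 2.77, 2.84 and 2.78 CPM. All 4 treated mouse samples lay below all 4 untreated ones, with treated replicate 1 the nearest to them (log2 fold change -0.63, SE 0.17). In untreated spiny mouse skin the level was 1.02, 0.873, 1.12 and 1.33 CPM, and after treatment 9.64, 9.9, 11.9 and 10.5 CPM. The spiny mouse groups lay far apart in the other direction (log2 fold change 3.27, SE 0.153). Untreated spiny mouse skin rested on 22 to 33 counts per sample. Aim2 belongs to a family of similar interferon-inducible genes, and the spiny mouse model joins 37 exon records into 7706 exon bases, against 3501 in mouse, so its counts are uncertain.

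Nlrp3, the sensor that responds to ion efflux and membrane damage, was low in mouse skin. It is ENSMUSG00000032691 at chr11:59432394-59457782 on the plus strand of GRCm39, and lies at scaffold_14:89264267-89286756 on the plus strand of AcoCah2. Untreated mouse samples had 2.93, 1.75, 2.45 and 4.19 CPM and treated ones 1.73, 1.1, 1.27 and 3.12 CPM. These groups overlapped, and treated replicate 4 lay well above the other 3 treated samples. The log2 fold change was -0.64 (SE 0.386), and it was -1.03 without treated replicate 4 and -0.37 without treated replicate 2. Untreated spiny mouse samples had 3.4, 3.73, 4.59 and 2.65 CPM and treated ones 21.4, 22, 30.4 and 25.1 CPM. Every treated spiny mouse sample was thus above every untreated one, and the log2 fold change was 2.78 (SE 0.18).

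Nlrp10, an NLR protein without the ligand-sensing repeats and abundant in epidermis, differed from Aim2 and Nlrp3 in spiny mouse. In mouse its fold change was close to theirs. The mouse gene, ENSMUSG00000049709, lies at chr7:108521059-108529385 on the minus strand (GRCm39), and the spiny mouse gene at scaffold_12:10489328-10499182 on the plus strand (AcoCah2). Untreated mouse samples had 68.7, 34.1, 67.1 and 83.4 CPM and treated ones 48.1, 42.9, 30.3 and 37.3 CPM. Untreated replicate 2 lay within the treated range and the other 3 untreated samples above it. The log2 fold change was -0.68 (SE 0.253), and -0.79 without untreated replicate 2. Untreated spiny mouse samples had 22.7, 17.9, 13.2 and 12.1 CPM and treated ones 10.4, 10.7, 13.2 and 13.4 CPM. Here untreated replicates 1 and 2 were above all treated samples while replicates 3 and 4 were inside the treated range (log2 fold change -0.47, SE 0.198).

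Pycard encodes ASC, the adaptor through which AIM2 and NLRP3 reach caspase-1. It is ENSMUSG00000030793 at chr7:127588880-127593039 on the minus strand of GRCm39, and lies at scaffold_17:71455048-71457040 on the plus strand of AcoCah2. Its level was 60, 34, 57.6 and 56.5 CPM in untreated and 53.4, 61.2, 61.5 and 59.8 CPM in treated mouse skin. Untreated replicate 2 was the single low sample, and the other 7 mouse samples lay between 53.4 and 61.5 CPM. The log2 fold change was 0.18 (SE 0.168), 0.11 without that sample, and it turned to -0.01 with upper-quartile factors and -0.05 when scaled by library size alone. In spiny mouse the level was 41.2, 37.5, 48.2 and 43.1 CPM in untreated and 54.3, 50.2, 43 and 53.5 CPM in treated skin. The groups overlapped through treated replicate 3 (log2 fold change 0.24, SE 0.101). An exon of mouse Pycard overlaps the transcript Gm45205 on the opposite strand, and the counting command has no strand option, so reads there cannot be assigned to either.

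Casp1 and Casp4, the inflammatory caspases, lie next to each other in both genomes. The 2 genes are on the same strand with 0 annotated genes between them, 1537 bases apart on mouse chromosome 9 and 1427 bases apart on spiny mouse scaffold_8. Because Casp4 was lower in every treated mouse sample while the Casp1 groups overlapped, the 250 bases before their mouse starts are shown, from RefSeq on GRCm38.p6, an older build than that of the counts. Capitals mark matches to the kappaB site, the binding motif of NF-kB.

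Casp1 (chr9:5298267-5298516, plus strand): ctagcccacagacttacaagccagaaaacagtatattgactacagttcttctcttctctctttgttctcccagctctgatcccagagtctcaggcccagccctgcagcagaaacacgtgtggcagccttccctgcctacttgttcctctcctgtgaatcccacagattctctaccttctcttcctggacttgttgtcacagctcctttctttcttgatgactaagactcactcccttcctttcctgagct

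Casp4 (chr9:5308599-5308848, plus strand): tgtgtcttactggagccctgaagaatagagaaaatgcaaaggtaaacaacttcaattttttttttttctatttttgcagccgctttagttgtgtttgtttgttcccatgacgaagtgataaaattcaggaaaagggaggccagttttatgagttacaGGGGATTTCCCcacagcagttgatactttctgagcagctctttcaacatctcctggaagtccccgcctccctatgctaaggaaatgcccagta

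Of the 10 genes, 8 had entries in the RefSeq promoter table, with 11 start windows. The windows were searched on both strands for the TPA response element TGANTCA, the core interferon-stimulated response element, the gamma-activated site TTCNNNGAA and the kappaB site. Over all 32851 windows of the table, 6.75%, 2.98%, 7.02% and 3.9% held these motifs. Casp4 had 2 overlapping kappaB matches beginning 93 and 92 bases before the start, and the Casp1 window had 0 matches to any of the 4. Outside this pair, the window of Ripk1 held 2 gamma-activated site matches, and 1 of the Nlrp3 windows held a kappaB match 186 bases before it. That window is shown for its kappaB match, and the other Nlrp3 window held none of the 4 motifs. Aim2 and Mlkl, with log2 fold changes of 3.27 and 2.32 in spiny mouse beside 2.78 for Nlrp3, also had no match. In mouse, the species of the sequence, the log2 fold change of Nlrp3 was -0.64.

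Nlrp3 (chr11:59541319-59541568, plus strand): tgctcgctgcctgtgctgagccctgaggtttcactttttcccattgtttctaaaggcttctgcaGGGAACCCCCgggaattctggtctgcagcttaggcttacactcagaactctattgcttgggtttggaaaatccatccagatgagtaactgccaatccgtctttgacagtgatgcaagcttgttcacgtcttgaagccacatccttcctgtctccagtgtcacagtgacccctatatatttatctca

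Such letter matches describe the reference mouse sequence and were not measured as binding in these samples.

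Casp1 encodes the protease that the inflammasome activates. The mouse gene, ENSMUSG00000025888, lies at chr9:5298508-5307290 on the plus strand (GRCm39), and the spiny mouse gene at scaffold_8:60308839-60318396 on the minus strand (AcoCah2). Its level was 33, 14.7, 34.7 and 24.4 CPM in untreated and 31.2, 26.3, 31.7 and 31 CPM in treated mouse skin. Untreated replicate 2 was again the lowest, and the groups overlapped (log2 fold change 0.17, SE 0.235, and 0.06 without that sample). It was -0.02 with upper-quartile factors and -0.06 when scaled by library size alone. Spiny mouse samples had 11.6, 13.3, 16.3 and 12.5 CPM in untreated and 23.6, 30.4, 27.9 and 26.4 CPM in treated skin. Every treated spiny mouse sample lay above every untreated one, with a log2 fold change of 1.01 (SE 0.122).

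Casp4 encodes caspase-11, which binds bacterial lipopolysaccharide directly and cuts gasdermin D. It is ENSMUSG00000033538 at chr9:5308828-5336783 on the plus strand of GRCm39, and lies at scaffold_8:60287039-60307411 on the minus strand of AcoCah2. Untreated mouse samples had 30.3, 17, 32.8 and 22.6 CPM, and treated ones 6.98, 7.12, 8.37 and 7.61 CPM. All treated mouse samples lay far below the lowest untreated one, which was replicate 2, and the log2 fold change was -1.77 (SE 0.203). It ranged from -2.0 to -1.57 over 18 alternative settings. Spiny mouse samples had 11.9, 12.8, 13.3 and 12.5 CPM in untreated and 24.2, 28.1, 31.8 and 32.1 CPM in treated skin. The 4 untreated spiny mouse samples lay close together and all treated ones above them, with a log2 fold change of 1.2 (SE 0.101).

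Zbp1 encodes the sensor of Z-form nucleic acids that can start necroptosis through RIPK3 without RIPK1. The mouse gene, ENSMUSG00000027514, lies at chr2:173048405-173060716 on the minus strand (GRCm39), and the spiny mouse gene at scaffold_1:62021191-62031573 on the plus strand (AcoCah2). Untreated mouse samples had 15.3, 3.77, 13.9 and 10.6 CPM and treated ones 3.31, 4.0, 6.22 and 7.2 CPM. Untreated replicate 2 fell among the treated samples, whereas the other 3 untreated samples were above all of them. The log2 fold change was -1.07 (SE 0.411), and -1.25 without untreated replicate 2. Spiny mouse skin had 2.08, 2.14, 2.21 and 2.01 CPM in untreated and 3.64, 4.29, 7.87 and 5.8 CPM in treated skin. The untreated spiny mouse samples were nearly level, and the treated samples were all higher but spread widely, with replicate 3 the highest (log2 fold change 1.35, SE 0.238, and 1.12 without that sample). The order of the 4 treated spiny mouse samples in Zbp1 was that of their summed T cell markers, at 69.0, 94.4, 137 and 101 CPM, but not that of their macrophage sums (805, 840, 970 and 1240 CPM). In treated mouse skin it was that of the macrophage sums, at 479, 530, 685 and 708 CPM, but not of the T cell sums (11.8, 11.4, 15.1 and 15.8 CPM). The part of these cells in the result was not tested.

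Ripk1 encodes the kinase and scaffold downstream of the tumour necrosis factor receptor. It is ENSMUSG00000021408 at chr13:34186346-34221130 on the plus strand of GRCm39, and lies at scaffold_9:66181285-66215406 on the plus strand of AcoCah2. Its level was 37.5, 32.6, 41 and 39.1 CPM in untreated and 43.5, 42.2, 41.6 and 42.2 CPM in treated mouse skin. The mouse groups were separated by less than 1 CPM, and the log2 fold change of 0.17 (SE 0.0924) turned to -0.03 with upper-quartile factors and -0.06 when scaled by library size alone. The spiny mouse level was 40.8, 35.7, 43.3 and 40.1 CPM in untreated and 64.7, 60, 62.1 and 71 CPM in treated skin. These groups were well separated, with a log2 fold change of 0.69 (SE 0.0813). Exons of mouse Ripk1 overlap Gm17084 on the same strand and Serpinb6a on the opposite one, so part of its mouse counts is uncertain.

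Ripk3 encodes the kinase at the centre of the necrosome, and its level was higher in treated skin of both species. The mouse gene, ENSMUSG00000022221, lies at chr14:56022452-56026322 on the minus strand (GRCm39), and the spiny mouse gene at scaffold_6:63886496-63890381 on the plus strand (AcoCah2). Untreated mouse samples had 6.88, 4.61, 6.67 and 7.24 CPM, and treated ones 13.6, 15.5, 16.2 and 16.5 CPM. Every treated mouse sample was above every untreated one (log2 fold change 1.28, SE 0.161). The spiny mouse level was 4.53, 4.8, 4.73 and 4.66 CPM in untreated and 19.7, 17.7, 17.6 and 24.3 CPM in treated skin. Untreated spiny mouse samples differed by less than 0.3 CPM, and treated replicate 4 was the highest of all (log2 fold change 2.08, SE 0.12, and 1.98 without it).

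Mlkl encodes the pseudokinase that RIPK3 phosphorylates and that breaks the membrane. It is ENSMUSG00000012519 at chr8:112038429-112064809 on the minus strand of GRCm39, and lies at scaffold_12:103301760-103330724 on the minus strand of AcoCah2. Its level was 8.96, 3.95, 7.07 and 6.79 CPM in untreated and 9.5, 8.84, 8.69 and 10.4 CPM in treated mouse skin. The groups overlapped through untreated replicate 1, and replicate 2 was the lowest (log2 fold change 0.48, SE 0.225, and 0.39 without replicate 2). In spiny mouse the level was 7.42, 8.25, 9.87 and 9.0 CPM in untreated and 43.2, 46.1, 43.5 and 39.9 CPM in treated skin. All 4 treated spiny mouse samples lay within a narrow band far above the untreated ones, with a log2 fold change of 2.32 (SE 0.0997).

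**Figure D2:**
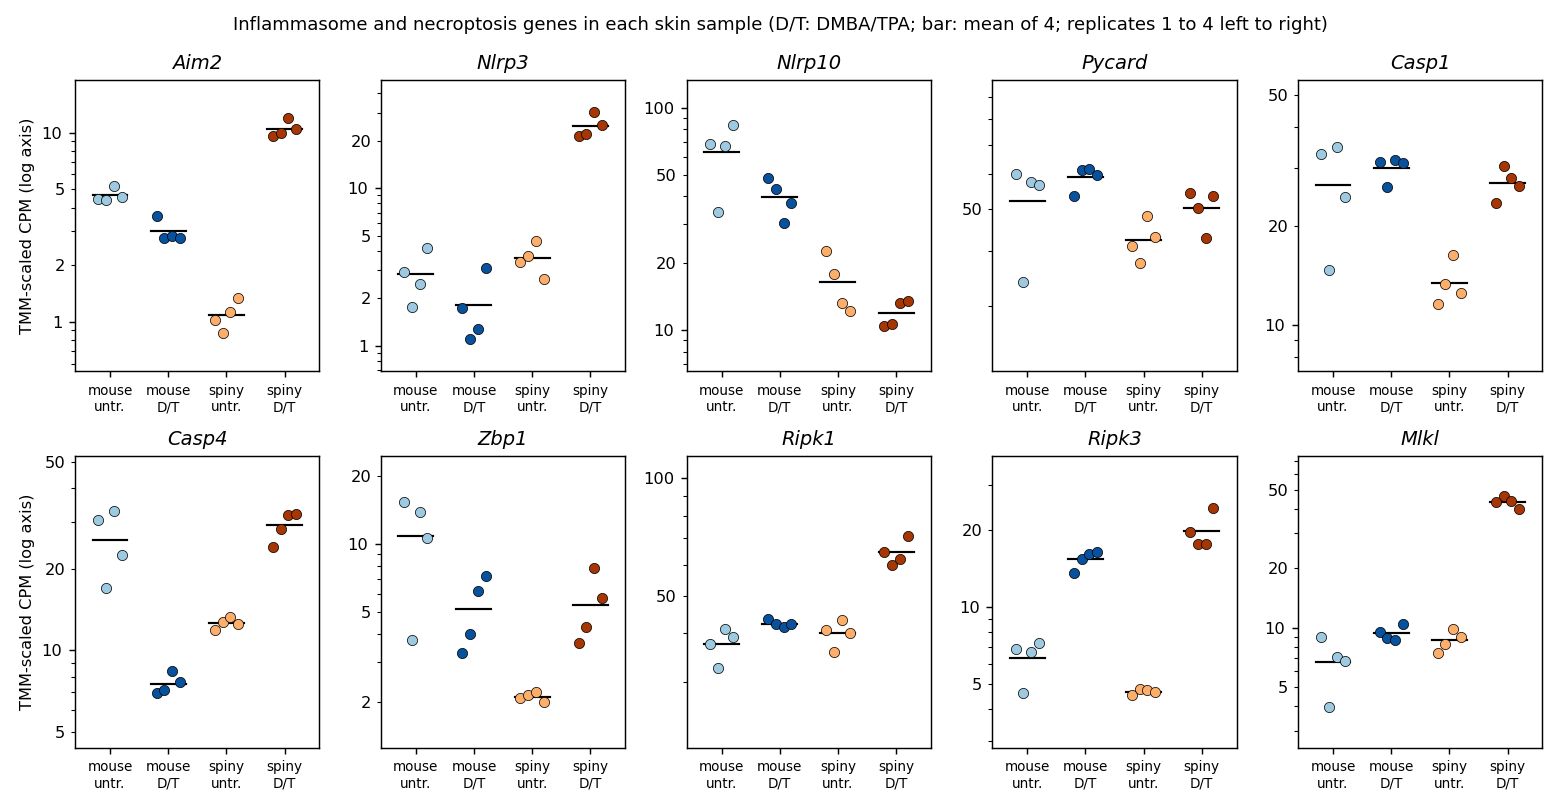
TMM-scaled CPM (log axis) of each gene in each of the 16 samples, as points for replicates 1 to 4 with a bar at the group mean. In spiny mouse the treated samples stand above the untreated ones for all but Nlrp10 and Pycard, and untreated replicate 2 is the lowest untreated mouse sample for each of the 10 genes.

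Ratios between 2 genes of the same library do not depend on how libraries are scaled to each other, and were taken per kilobase of exon. Casp4 over Casp1 in mouse was 0.775, 0.979, 0.797 and 0.784 in untreated and 0.189, 0.229, 0.223 and 0.207 in treated skin. The mouse ratio was thus 0.834 ± 0.0971 and 0.212 ± 0.018 (mean ± SD, n = 4) with no overlap, and untreated replicate 2, which was low for both genes, kept a ratio of 0.979. In spiny mouse the same ratio was 0.981 ± 0.0946 in untreated and 1.11 ± 0.133 in treated skin, with overlapping samples. Ripk3 over Ripk1 was higher after treatment in both species, at 1.33 ± 0.135 against 0.612 ± 0.0755 in mouse and 1.9 ± 0.156 against 0.727 ± 0.0709 in spiny mouse. Mlkl over Ripk3 was lower in treated mouse skin, at 0.607 ± 0.0719 against 1.03 ± 0.193, while in spiny mouse it was 1.67 ± 0.32 against 1.38 ± 0.152 with overlapping samples. All 4 treated mouse samples (0.535 to 0.698) lay below all untreated ones (0.853 to 1.3). Casp1 over Pycard was 0.611 ± 0.104 and 0.62 ± 0.0772 in untreated and treated mouse skin, and 0.344 ± 0.0391 and 0.594 ± 0.108 in spiny mouse. Nlrp3 over Pycard went from 0.0332 ± 0.00668 to 0.197 ± 0.0551 in spiny mouse, and was 0.0509 ± 0.0129 and 0.0289 ± 0.0146 in mouse.

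**Figure D3:**
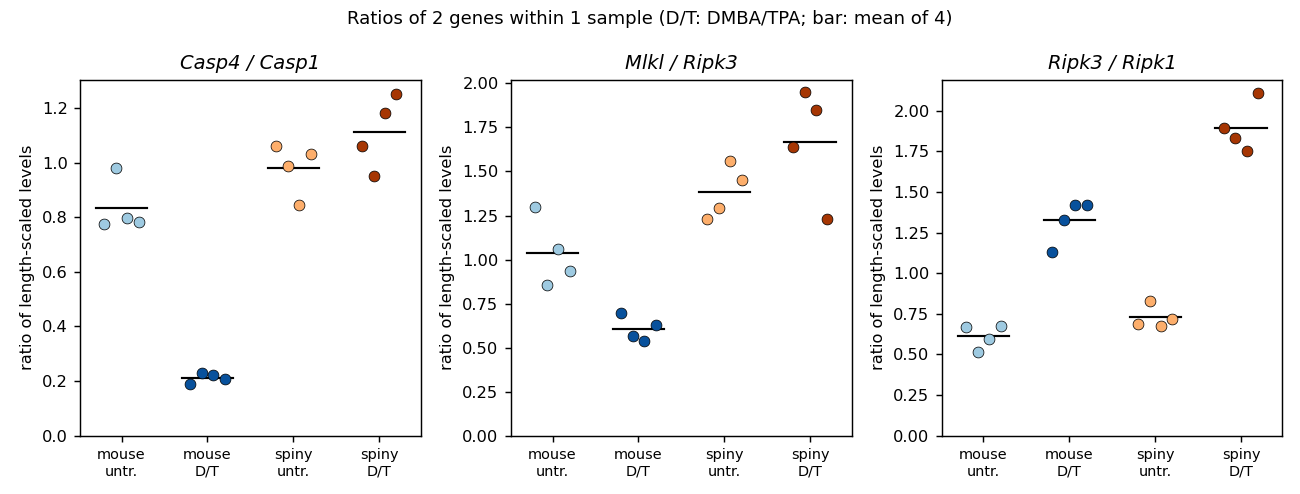
Ratios of the per-kilobase levels of gene pairs within each library on a linear axis from 0, as points for the 4 replicates of each group with a bar at the mean. Casp4 over Casp1 drops to 0.189 to 0.229 in treated mouse skin and stays between 0.845 and 1.25 in spiny mouse skin.

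Compared per length of exon (CPM per kilobase, RPKM), the adaptor was at or near the top in all 4 groups. In untreated mouse skin Nlrp10 (14.1 RPKM) and Pycard (13.7) led, with Casp1 at 8.52 and Casp4 at 6.92. Neighbours in that order overlapped in their sample ranges down to Ripk3 (2.77), and Aim2 (1.33) and Nlrp3 (0.698) stood apart at the bottom. In treated mouse skin Pycard stood apart at the top (15.5), and Casp4 dropped to the seventh place at 2.03 RPKM, overlapping Zbp1 at 1.47. In untreated spiny mouse skin Pycard (26.6) stood apart from Casp1 (9.13) and Casp4 (8.86), which overlapped, and Aim2 was last and apart at 0.141. In treated spiny mouse skin Casp4 (20.4), Casp1 (18.4) and Mlkl (16.6) overlapped below Pycard (31.4), and Aim2 was still last at 1.36. Nlrp3 reached 6.06 RPKM there and overlapped Ripk1 at 5.35. Mouse exon lengths include all annotated transcripts and the spiny mouse models are shorter for several genes, so levels were ordered within a group and not between species. The spiny mouse Aim2 model is longer, at 7706 exon bases against 3501 in mouse. Its place in treated spiny mouse skin depends on that uncertain length.

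The difference between the species in the response, taken as the species by treatment term (spiny mouse minus mouse, log2), was 3.90 (SE 0.208) for Aim2, 3.41 (SE 0.422) for Nlrp3 and 2.97 (SE 0.235) for Casp4. It was 2.42 (SE 0.515) for Zbp1, 1.84 (SE 0.244) for Mlkl, 0.84 (SE 0.282) for Casp1, 0.80 (SE 0.196) for Ripk3 and 0.51 (SE 0.119) for Ripk1. For Nlrp10 it was 0.21 (SE 0.344) and for Pycard 0.06 (SE 0.205), both smaller than their standard errors. So 8 of the 10 were called with a positive difference and 0 with a negative one, where 21.4% and 24.7% of the 13657 shared symbols were called, and again nothing is read from this count. The median difference was 1.34 for the 10 genes and -0.032 for all shared symbols. Nlrp10 and Pycard are the 2 that were called in neither spiny mouse nor the difference, and they had the highest per-length levels of the 10 in untreated mouse skin.

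By Pearson correlation of log2 CPM centred within each species over the 16 samples, the genes most like Zbp1 among 9771 shared symbols were Irf5 (r = 0.97), Spi1 (0.968) and Ube2l6 (0.966). Those most like Mlkl were Akr1b8 (0.977), Ifnar1 (0.97) and Thy1 (0.969). Casp1 was most like Gusb (0.951), Lmo1 (0.94) and Psme2 (0.94), and Nlrp3 most like Parp12 (0.963), Mvp (0.948) and Hcls1 (0.946). These correlations still hold the treatment difference of each species, and these differences were not alike. The log2 fold change was -1.07 in mouse and 1.35 in spiny mouse for Zbp1, and -0.64 and 2.78 for Nlrp3. It was 0.48 and 2.32 for Mlkl, and 0.17 and 1.01 for Casp1. The correlations are given as a description, and likeness apart from the group differences was not tested.

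The genes around these 10 were taken from 4 pathway lists of 61 genes, drawn up with earlier results of these data known. Of 59 tested in mouse, 11 rose and 23 fell, shares to be read beside the 25.9% and 35.3% of all mouse genes. Of 51 tested in spiny mouse, 27 rose and 4 fell, beside 28.2% and 26.9% of all spiny mouse genes. The species difference (spiny mouse minus mouse) was called positive for 28 of 50 and negative for 8, beside 21.4% and 24.7%. The median log2 fold change of the listed genes was -0.15 in mouse, 0.34 in spiny mouse and 0.56 for the difference. Since the lists were drawn up with results known, nothing is read from these counts or from those of each list below.

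Among inflammasome sensors and regulators, 2 of 15 rose and 6 fell in mouse, beside 25.9% and 35.3% of all genes. In spiny mouse 5 of 12 rose and 1 fell, beside 28.2% and 26.9% of all genes. Nlrp1b, a sensor of proteases and of anthrax lethal toxin, fell in mouse from 9.34 ± 4.16 to 2.17 ± 0.493 CPM (mean ± SD, n = 4, log2 fold change -2.10, edgeR adjusted p = 0.000519), and Txnip, a binder of thioredoxin, from 554 ± 84.3 to 186 ± 10.2 CPM (-1.57, edgeR adjusted p = 4.1e-05). Nlrp1a, Nlrp1b and Naip5 have close copies, so their counts are uncertain. In spiny mouse Nlrp12, a leukocyte NLR, rose from 0.186 ± 0.109 to 6.22 ± 2.19 CPM (5.01, edgeR adjusted p = 2.47e-05), on a near-zero base of 3 to 10 counts per untreated sample. Mefv, the pyrin sensor, rose there from 0.742 ± 0.272 to 4.14 ± 1.33 CPM (2.49, edgeR adjusted p = 0.000207), and Sting1, the adaptor of cytosolic DNA sensing, from 3.38 ± 0.47 to 14.7 ± 3.24 CPM (2.11, edgeR adjusted p = 3.16e-05). Panx1, a channel that releases ATP, went the opposite way in the 2 species. It rose in mouse from 21.4 ± 1.68 to 34.2 ± 2.42 CPM (0.68, edgeR adjusted p = 0.000417) and fell in spiny mouse from 65.5 ± 5.42 to 23 ± 2.17 CPM (-1.51, edgeR adjusted p = 8.86e-06), and the difference of -2.19 passed the test (edgeR adjusted p = 2.73e-08).

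Among pyroptosis effectors and substrates, 2 of 8 rose and 2 fell in mouse, beside 25.9% and 35.3% of all genes. In spiny mouse 3 of 7 rose and 2 fell, beside 28.2% and 26.9% of all genes. Gsdmd, the pore-forming target of both caspases above, fell in mouse from 14.6 ± 2.77 to 7.27 ± 1.44 CPM (-1.0, edgeR adjusted p = 0.00185) and rose in spiny mouse from 7.85 ± 0.583 to 15.1 ± 4.14 CPM (0.95, edgeR adjusted p = 0.0024). The difference for Gsdmd was 1.95 (edgeR adjusted p = 5.49e-05). Gsdme, a second pore former, fell in both, by 1.27 and 1.04 on the log2 scale (edgeR adjusted p = 0.000232 and 0.00139). The caspase-1 substrates parted: Il1b rose in spiny mouse from 5.3 ± 1.93 to 90.6 ± 18.8 CPM (4.09, edgeR adjusted p = 1.23e-05) while Il18 fell from 152 ± 28.1 to 62 ± 13.6 CPM (-1.29, edgeR adjusted p = 0.000324). In mouse neither passed, with Il1b at 6.14 ± 3.54 and 7.35 ± 2.32 CPM (edgeR adjusted p = 0.643) and Il18 at 27.6 ± 10 and 38.7 ± 6.01 CPM (edgeR adjusted p = 0.15). Il1rn, the receptor antagonist, rose in both, by 1.04 in mouse and 2.13 in spiny mouse (edgeR adjusted p = 0.00423 and 2e-05). Exons of mouse Il1b, Il1a, Txnip, Irf1 and Fadd, of spiny mouse Il18 and of Spata2 in both species overlap other annotated genes, so part of their counts is uncertain.

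Among the caspase-11 route and interferon regulators, 0 of 10 rose and 8 fell in mouse, beside 25.9% and 35.3% of all genes. In spiny mouse 5 of 6 rose and 0 fell, beside 28.2% and 26.9% of all genes. The difference was called positive for all 6 of those tested in both, beside 21.4% of all shared symbols. Irf1, an interferon-induced transcription factor, fell in mouse from 26.4 ± 5.19 to 16.4 ± 1.85 CPM (-0.69, edgeR adjusted p = 0.00454) and rose in spiny mouse from 30.4 ± 2.91 to 61.1 ± 22.1 CPM (1.01, edgeR adjusted p = 0.0061). Ifngr1, a chain of the interferon gamma receptor, had a difference of 1.91 (edgeR adjusted p = 9.1e-06). Of the 11 listed genes, Irgb10 was matched by symbol in neither table and Gbp3, Gbp5 and Gbp7 in the mouse table only. Gbp2 had 0 counts in every spiny mouse sample, where its exons overlap Gbp2b.

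Among death receptor and necroptosis regulators, 7 of 26 rose and 7 fell in mouse, beside 25.9% and 35.3% of all genes. In spiny mouse 14 of 26 rose and 1 fell, beside 28.2% and 26.9% of all genes. Casp8, the protease that holds necroptosis in check, rose in spiny mouse from 23.7 ± 3.0 to 43.1 ± 3.31 CPM (0.86, edgeR adjusted p = 0.000142) and was 29.1 ± 4.62 and 31.7 ± 0.744 CPM in mouse (edgeR adjusted p = 0.396). Its difference of 0.74 passed the test (edgeR adjusted p = 0.00132). Fadd, the adaptor of caspase-8, had a log2 fold change of 0.50 in mouse and 0.23 in spiny mouse (edgeR adjusted p = 0.0258 and 0.0324), and the difference did not pass (-0.27, edgeR adjusted p = 0.223). Cflar, the caspase-8 modulator cFLIP, was 0.14 in mouse (edgeR adjusted p = 0.201) and 0.25 in spiny mouse (edgeR adjusted p = 0.0368). The calls of Fadd in both species and of Cflar in spiny mouse were lost in some alternative settings, with adjusted p up to 0.138, 0.102 and 0.101. Pgam5, a mitochondrial phosphatase, rose in mouse from 24.6 ± 2.76 to 50.5 ± 2.54 CPM (1.04, edgeR adjusted p = 5.12e-05), and Spata2, a partner of the deubiquitinase CYLD, by 0.69 (edgeR adjusted p = 0.000219). Their log2 fold changes in spiny mouse were 0.3 and -0.08, with differences of -0.74 and -0.77 (edgeR adjusted p = 0.000141 and 2.98e-05).

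**Figure D4:**
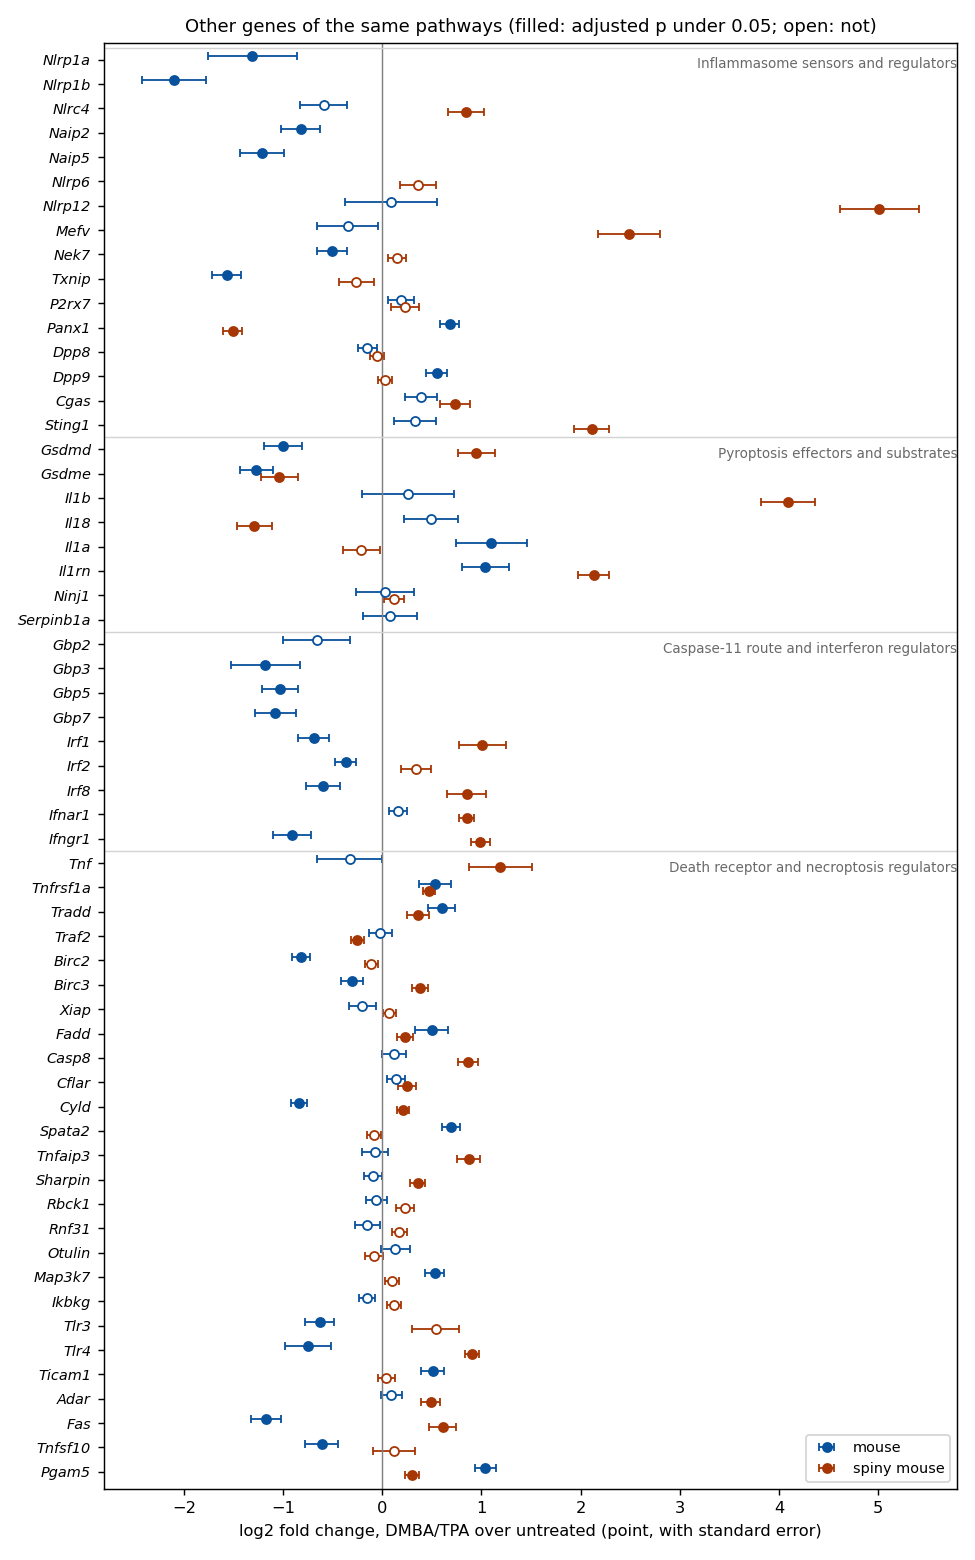
Log2 fold change of treated over untreated skin (x axis) for the listed pathway genes tested, in rows grouped by list, as estimate and standard error in mouse (blue) and spiny mouse (red). Filled points passed an adjusted p of 0.05 in edgeR. Gsdmd and Irf1 lie at negative values in mouse and positive values in spiny mouse, and Panx1 the opposite.

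In whole skin, fewer cells of a type and less RNA per cell cannot be told apart. Macrophage markers (7 listed, 7 in both tables) summed to 399 to 1170 CPM in untreated and 479 to 708 CPM in treated mouse skin, and to 495 to 596 and 805 to 1240 CPM in spiny mouse, where 2 of 7 were higher without overlap. T cell markers (7 listed) summed to 20.5 to 29.3 and 11.4 to 15.8 CPM in mouse, with 4 of 7 lower without overlap, and to 36.2 to 57.6 and 69.0 to 137 CPM in spiny mouse, with 3 of 7 higher. Langerhans and dendritic cell markers (5 listed) went from 28.2 to 40.2 CPM down to 17.6 to 23.7 CPM in mouse, with 1 of 5 higher and 2 lower without overlap, and from 8.65 to 13.8 up to 15.2 to 21.3 CPM in spiny mouse, with 3 of 5 higher. Within that list Ccr7, a migration receptor, was at 0.821 ± 0.32 and 2.3 ± 0.43 CPM in mouse and 2.1 ± 0.55 and 9.6 ± 2.27 CPM in spiny mouse. The Langerhans cell marker Cd207 was at 15.3 ± 5.07 and 3.95 ± 0.504 CPM in mouse and 4.81 ± 1.37 and 3.23 ± 0.265 CPM in spiny mouse. Exons of spiny mouse Cd207 overlap Clec4f, so part of its counts there is uncertain. In each species the T cell sums moved in the same direction as the group means of Aim2, Nlrp3, Casp4 and Zbp1. Against the T cell sums, the means of Pycard, Casp1, Ripk1, Ripk3 and Mlkl were higher in treated mouse skin. That of Nlrp10 was lower in treated spiny mouse skin. Macrophage sums were higher in treated spiny mouse skin and overlapped in mouse, and the Langerhans and dendritic cell list was mixed in its members. The neutrophil list (7 listed, 6 in the spiny mouse table) had a higher sum after treatment in both species, at 843 to 1750 against 8.64 to 36.9 CPM in mouse and 2200 to 2570 against 69.0 to 106 CPM in spiny mouse. S100a8 and S100a9, which keratinocytes also make, held most of that sum, and in treated mouse skin Ly6g was at 0 in every sample and Mpo and Elane were near 0. Cxcr2, a neutrophil chemokine receptor, was at 1.91 ± 1.16 and 13.4 ± 1.28 CPM in mouse and 0.781 ± 0.265 and 14.9 ± 2.11 CPM in spiny mouse. Csf3r was at 6.05 ± 1.01 and 10.5 ± 3.75 CPM in mouse and 7.43 ± 1.9 and 43.5 ± 5.98 CPM in spiny mouse. In spiny mouse Mpo was at 0.0782 ± 0.0693 and 2.85 ± 1.83 CPM, and Elane was near 0 at 0.0255 and 0.0955 CPM. Exons of spiny mouse Mpo overlap Tspoap1, so part of its counts is uncertain. Basal keratinocyte markers (6 listed) summed to 6940 to 10000 and 14100 to 18800 CPM in mouse, with 3 of 6 higher and 2 lower without overlap. In spiny mouse they summed to 8300 to 10000 and 16700 to 20900 CPM, with 3 of 6 higher and 1 lower. Within that list Krt15 was at 1110 ± 176 and 268 ± 39.9 CPM in mouse and 879 ± 224 and 283 ± 11 CPM in spiny mouse. Muscle markers (5 listed) summed to 18200 to 58800 and 2770 to 3890 CPM in mouse, and to 10800 to 15300 and 4300 to 8390 CPM in spiny mouse. Anagen hair follicle markers (5 listed, 4 in the spiny mouse table) had median sums of 10.2 CPM in untreated and 14000 CPM in treated mouse skin. In spiny mouse the medians were 4240 and 408 CPM, with overlapping samples. The part of these cell types in the levels of the inflammasome and necroptosis genes was not tested.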

How the data were processed

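Polyadenylated RNA of skin was sequenced as stranded mRNA libraries, per the labels' protocols. The authors deposited raw fragment counts per gene, made with featureCounts 2.0.3 from read pairs with both ends mapped and no strand option, on GRCm39 with the Ensembl 108 annotation or on AcoCah2, per the file headers. Trim Galore and HISAT2 are named in the submitters' processing notes without a role. The deposited gene lengths in bases, another column of the authors' tables, served for RPKM. Mouse symbols came from GENCODE M39 by identifier, which left 744 of 56980 without one.

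Untreated columns carry a code that is not in the labels and were matched by species letter and replicate number, and the column of untreated mouse replicate 2 has a suffix of unstated meaning. The series' design text describes irradiated fibroblasts, and the sample labels were followed instead. Total counts ran from 19608787 to 30198281 in mouse and 21143918 to 30561256 in spiny mouse, and intervals from counts would cover counting error only. The 24 within-group replicate pairs differed by a chi-square per degree of freedom of 11.35 to 165.8, so no library was a copy of another in its group. All samples were kept, untreated mouse replicate 2 included.

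After filterByExpr and TMM scaling, each species was fitted alone in edgeR 4.0.16 (R 4.3.3) and treated skin compared with untreated skin by its quasi-likelihood F test, with Benjamini-Hochberg adjustment over all genes and a threshold of 0.05. The species by treatment term was fitted over 13657 shared symbols. SE is the log2 fold change divided by the square root of F. Scripts were tested on simulated data. The 10 genes, the pathway and marker lists and the naming rule were chosen with earlier results of these data known. Named pathway genes are the 5 called genes with the largest change in each direction per comparison and genes next to a member in role. One listed pathway gene is counted but not reported here by name. Alternatives tried were the test and the size factors of DESeq2 1.42.0, other edgeR scalings and filters, limma 3.58.1 voom, the replicate number as a block and each replicate left out. TMM factors from all genes were added after seeing the data. Promoter windows are RefSeq, GRCm38.p6.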

Additional observations from a re-analysis of the deposited data

Results flagged for a closer look

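Across 40 groups of 4 samples (the 10 genes in each of the 4 groups), 3 had a sample far from the others, and chance flags about 1 in 20 such groups. Aim2 in treated mouse replicate 1 was at 3.62 CPM, above the other 3 treated samples. Pycard in untreated mouse replicate 2 was at 34.0 CPM, below the other 3, in the sample that stood apart on the second principal component. Casp1 in treated mouse replicate 2 was at 26.3 CPM, below the other 3.

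For Aim2 and Casp4 the treated samples of each species all moved away from the untreated ones, down in mouse and up in spiny mouse. Their differences were 3.90 and 2.97 on the log2 scale (spiny mouse minus mouse). These genes were chosen with that comparison known, so the values are a description and no test of the difference is drawn on.

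The species difference in log2 fold change (spiny mouse minus mouse) was tested with edgeR's quasi-likelihood test, adjusted over all shared symbols. It passed for 36 of 50 pathway genes, beside 46.1% of all shared symbols. Of the 36, 12 that the naming rule covers are given here. The difference was positive for Nlrp12 (4.91, adjusted p = 2.7e-05), Il1b (3.83, adjusted p = 6.58e-05), Mefv (2.85, adjusted p = 0.000125), Gsdmd (1.95, adjusted p = 5.49e-05) and Ifngr1 (1.91, adjusted p = 9.1e-06). It was also positive for Irf1 (1.69, adjusted p = 0.000362) and Casp8 (0.74, adjusted p = 0.00132). The difference was negative for Panx1 (-2.19, adjusted p = 2.73e-08), Il18 (-1.78, adjusted p = 0.00075), Il1a (-1.30, adjusted p = 0.0205), Spata2 (-0.77, adjusted p = 2.98e-05) and Pgam5 (-0.74, adjusted p = 0.000141). A difference does not give the direction in each species: Gsdmd, Ifngr1 and Irf1 fell in mouse and rose in spiny mouse, and Panx1 rose in mouse and fell in spiny mouse.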

How the results depend on the processing

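There were 18 alternative settings per species and 26 for the difference. For the difference, Casp1 was called in 21 of 26, at 0.62 to 1.14 on the log2 scale. The rest of the 8 genes called for the difference were called in all 26. The 8 genes called in spiny mouse were called in all 18. In mouse Casp4 and Ripk3 were called in all 18 and Aim2 in 16. The other mouse calls were less stable: Zbp1 was called in 8 and Nlrp10 in 7. Ripk1, Mlkl and Nlrp3, not called in the mouse fit reported, were called in 7, 6 and 3. In mouse, 3 of the 10 genes were called higher with DESeq2 size factors, without the low-count filter, with the DESeq2 test and with TMM factors from all genes (chosen after seeing the data), against 1 in the fit reported. The count called lower, 4 as reported, was 2 with DESeq2 size factors and with TMM factors from all genes, and 1 without the low-count filter. Leaving out single mouse replicates gave 1 to 3 called higher (3 without untreated replicate 2, and 2 without untreated replicate 1 or 3 or treated replicate 2). It gave 1 to 4 called lower (1 without treated replicate 2, and 2 without untreated replicate 1, 3 or 4 or treated replicate 1 or 3). In spiny mouse 1 gene was called lower with upper-quartile factors and with the DESeq2 test, against 0, and 0 to 1 when single replicates were left out (1 without untreated replicate 3 or 4). For the species difference, 5 pathway genes were called lower under upper-quartile factors or scaling by library size alone, against 8. The causes were not tested. All called pathway genes held their sign in every alternative, and 22 of 34 in mouse, 27 of 31 in spiny mouse and 30 of 36 for the difference held their call. Over all genes, higher genes made up 42.4% of the mouse calls as reported, and 28.6% to 51% over the other scalings. Their share was 48.4% with DESeq2 size factors, 44.4% without the low-count filter, 47.6% with the DESeq2 test and 51% with TMM factors from all genes. With single mouse replicates left out it was 41.3% to 48.1%. In spiny mouse it was 51.1% as reported, 46.6% with upper-quartile factors and 50.3% with the DESeq2 test. For the difference it was 46.4% as reported, 61.2% with upper-quartile factors and 66.2% by library size alone.

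The labels do not say whether same-numbered samples belong together. Deviations of same-numbered samples correlated at -0.008 to 0.023 in mouse and -0.526 to -0.195 in spiny mouse. No untreated sample correlated best with the treated sample of its own number, but these values cannot exclude a pairing. With the replicate number as a block, 11246 mouse genes, 7418 spiny mouse genes and 5723 differences were called, beside 12085, 8180 and 6291.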

Other observations

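Among the 26 death receptor and necroptosis regulators, the species difference was not called for 9, such as Xiap (0.27), Tradd (-0.24) and Tnfrsf1a (-0.06 on the log2 scale). The 4 genes below lie outside the naming rule and were chosen after their values were seen. Their differences are all positive, while the list had 13 called positive and 4 negative. Some genes of the list not given here differed as much. The 4 genes are a description and do not speak for the list. Cyld, the deubiquitinase that frees RIPK1 for death signalling, had a log2 fold change of -0.84 in mouse and 0.21 in spiny mouse, with a difference of 1.05. Fas, a death receptor, was -1.17 in mouse and 0.61 in spiny mouse, with a difference of 1.78. Birc2, a ubiquitin ligase that restrains RIPK1, was -0.82 in mouse and -0.11 in spiny mouse, with a difference of 0.71. Tnfaip3, the brake on NF-kB known as A20, was -0.07 in mouse and 0.87 in spiny mouse, with a difference of 0.94.

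In spiny mouse the summed anagen hair follicle markers (4 in the table) were 6410, 7500, 659 and 2080 CPM in untreated and 130, 99.0, 1770 and 685 CPM in treated replicates 1 to 4. Nlrp10 was highest in untreated replicates 1 and 2, the samples with the highest sums, at 22.7 and 17.9 CPM. In treated replicates 3 and 4, with the higher sums of that group, it was 13.2 and 13.4 CPM, against 10.4 and 10.7 CPM in replicates 1 and 2. In mouse the sums were 1.87, 1310, 18.5 and 1.41 CPM in untreated and 13300 to 14200 CPM in treated skin. There the order was the opposite: untreated replicate 2, with the highest untreated sum, had the lowest untreated Nlrp10 level (34.1 CPM), and all treated samples were below the other 3 untreated ones. The part of hair follicle content in the level of Nlrp10 was not tested.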
